A study of Mus musculus with 11 samples.

Results

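The genes described here are the mitochondrial carriers of the Slc25 family, taken as every gene whose symbol starts with Slc25a and a digit. The rule found 48 of the 55421 genes counted, among them 1 pseudogene, Slc25a5-ps. The counts come from RNA bound to tagged ribosomes in cerebella of mice on postnatal day 56. In the RiboTag method Cre recombinase switches on a haemagglutinin-tagged copy of the ribosomal protein Rpl22, and an antibody against the tag pulls down the ribosomes of the Cre-expressing cells with their RNA. The 7 control animals had the genotype Pcp2Cre;Rpl22HA/HA, and the 4 knockout animals Pcp2Cre;Tie2flox/flox;Rpl22HA/HA, so the Cre and the tagged ribosome were common to both groups. Pcp2 drives Cre in Purkinje cells, the output neurons of the cerebellar cortex, and Tie2 is the angiopoietin receptor encoded by Tek. The study asked how Purkinje cells that lack Tie2 differ in the RNA they translate. Each library came from 1 animal and is named by group and animal tag. Libraries fell into 3 labelled batches: F371, M374 (knockouts) and M379 (control) formed batch 1, M390 (knockout) and M386 (control) batch 2, and M456 (knockout) batch 3 together with controls F473, M476, M477, M479 and M480.

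Carriers of this family sit mostly in the inner mitochondrial membrane, where each moves a small set of metabolites, nucleotides or cofactors between the cytosol and the matrix. The ADP/ATP and phosphate carriers serve ATP synthesis, the aspartate/glutamate and oxoglutarate carriers form the malate-aspartate shuttle that brings reducing equivalents into the matrix, and others carry amino acids, coenzymes, nucleotides or iron. Purkinje cells fire without pause and have a high demand for ATP. A few members lie elsewhere, such as Slc25a17 in peroxisomes and Slc25a46 in the outer mitochondrial membrane.

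Reads counted in genes ranged from 2.58 to 4.20 M in the knockouts and from 4.09 to 5.14 M in the controls. A count of 3, taken as the detection floor, corresponded to 0.595 to 1.20 CPM (reads scaled to a common library total by the TMM method) in single libraries, for counting error only. The targeted gene Tek had 0, 7, 0 and 14 reads in knockouts F371, M374, M390 and M456 and 0 to 40 reads in the controls, with 1 read in control M379 and 0 in control M386, so at this depth it could not check the labels. Purkinje cell markers were present in every library, where Pcp2 averaged 119.5 CPM ± 7.48 (SD, n = 4) in knockouts against 105 CPM ± 9.67 (SD, n = 7), and the summed level of 20 Purkinje markers was 7780 to 10532 CPM in the knockouts and 8094 to 9374 CPM in the controls. Of the 20 Purkinje markers, Calb1, Car8, Pvalb and Foxp2 were called higher and Lhx1, Gad2, Dner and Homer3 lower. That was 40% called, against 24.4% of all tested genes, with a median log2 fold change of -0.06. The median standard error (SE) of the fitted change was 0.11 for these markers and 0.23 for all tested genes. Markers of other cells were carried along, and more so in the knockouts for several lists. The summed level of 11 granule cell markers was 685 and 1049.9 CPM in the knockouts of batch 1 against 433 CPM in its control, 576 against 482 CPM in batch 2, and 1697 against at most 864 CPM in batch 3, and 8 of the 11 were called higher (median log2 fold change 1.00). That of 11 oligodendrocyte markers was 539.8 and 944 against 420.1 CPM in batch 1, 396 against 338 CPM in batch 2 and 1021 against at most 757 CPM in batch 3, so for both lists each knockout exceeded every control of its own batch. That of 11 Bergmann glia and astrocyte markers was 1047 to 1782 CPM in the knockouts against 1017 to 1238 CPM, and 6 of these were called higher and 1 lower (median 0.84). Aldoc (439 CPM in knockouts, 454 CPM in controls) and Sept4 (186 and 234 CPM) made up much of this sum. They had log2 fold changes of -0.07 and -0.30, while the other 9 of the 11 were positive. For 8 interneuron and unipolar brush cell markers the summed level was 87.4 to 164 against 45.8 to 85.4 CPM, with no overlap between the groups. For 9 microglia markers it was 20.02 to 121 against 21.2 to 49.0 CPM, for 9 endothelial and mural markers 31.3 to 133 against 21.4 to 136 CPM, and for 6 choroid plexus markers 125 to 430 against 67.0 to 262 CPM. No marker of these lists was at 0 in all libraries of a group. In such pulled-down RNA, fewer cells of a type and less RNA per cell cannot be told apart.

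The carriers moved in both directions, and most did not pass the test. Of the 48 genes, 37 passed the filter on low counts and were tested. In the knockouts 5 were higher, Slc25a3, Slc25a16, Slc25a24, Slc25a30 and Slc25a33, and 9 were lower, Slc25a10, Slc25a17, Slc25a20, Slc25a23, Slc25a25, Slc25a27, Slc25a38, Slc25a44 and Slc25a47, while 23 did not pass (edgeR's quasi-likelihood fit of batch and genotype, Benjamini-Hochberg adjusted p under 0.05 over 13375 genes; fitted changes below are log2, knockout minus control, with their SE). In that fit 24.4% of all tested genes passed, 10.9% higher and 13.4% lower, against 37.8% of the 37 carriers. The median log2 fold change was -0.06 for the carriers and -0.02 for all tested genes. The median size of change, regardless of sign, was 0.36 and 0.40, and the median SE 0.17 and 0.23. At a smaller SE the same change passes more easily, so the shares called are not like for like. Of the 37 carriers, 15 had a positive and 22 a negative change. The number of calls moved with single libraries. Without knockout M456, the shallowest library and the only knockout of batch 3, the 5 controls of that batch no longer entered the comparison, and 1 carrier was higher (Slc25a30) and 0 lower. Several fitted changes stayed close to those with all libraries, at 2.30 for Slc25a24 (2.06 with all), -0.81 for Slc25a44 (-0.83) and -0.69 for Slc25a17 (-0.72). Others shrank, to -0.51 for Slc25a23 (-0.75 with all), 0.67 for Slc25a33 (0.83) and -0.42 for Slc25a10 (-0.61). For these the edgeR adjusted p was 0.078, 0.088 and 0.32. The changes of Slc25a3, Slc25a16, Slc25a27 and Slc25a47 without M456 are given below. Of all genes, 335 were then called. Without control M379, the only control of batch 1, the 2 knockouts of that batch dropped out of the comparison, and 2 were higher (Slc25a30 and Slc25a33) and 1 lower (Slc25a23), with 522 of all genes called. Without M374 the number lower was 4, Slc25a10, Slc25a17, Slc25a20, Slc25a25 and Slc25a38 being lost, with 2760 of all genes called. Without F473, M477 or M479 the number lower was 5, with Slc25a10, Slc25a20, Slc25a25 and Slc25a38 lost. Without F473, Slc25a16 was lost too. Of all genes, 2548, 2607 and 2735 were called, in that order of libraries. Without F371, calls for Slc25a17, Slc25a20 and Slc25a25 were lost, and without M480 those for Slc25a10, Slc25a20 and Slc25a38. Of all genes, 3046 and 2760 were then called. Without batch 2, which held 1 library of each group, 9 were higher and 10 lower, with 4643 of 13601 tested genes called. Slc25a15, Slc25a18, Slc25a37 and Slc25a46 were then added to the higher and Slc25a5 to the lower genes. Leaving out knockout M390 or control M386 alone gave the same numbers of carriers, with 4649 and 4615 of all genes called.

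**Figure D1:**
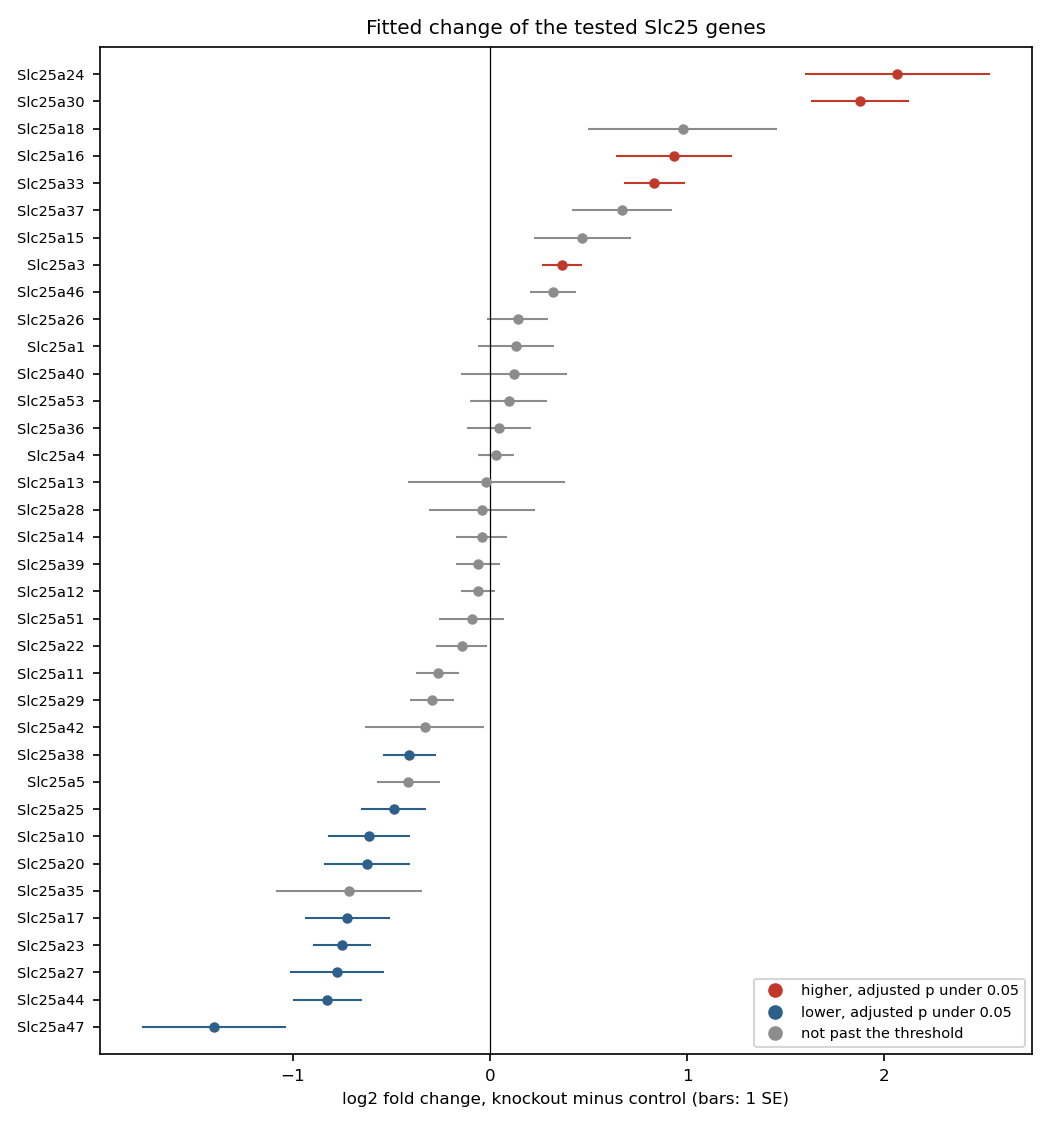
Fitted log2 fold change, knockout minus control, with bars of 1 SE, for the tested Slc25 genes reported (horizontal axis), ordered by the change (vertical axis). The 5 genes in red and 9 in blue passed the threshold; the changes run from -1.40 for Slc25a47 to 2.06 for Slc25a24.

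In 8 of the 37 tested carriers the values of the 4 knockouts and the 7 controls did not overlap, where this held for 13.0% of all tested genes. The knockouts lay above in 4, Slc25a24, Slc25a30, Slc25a33 and Slc25a46 (6.20% of all tested genes), and below in 4, Slc25a11, Slc25a23, Slc25a38 and Slc25a47 (6.77%). Slc25a46 and Slc25a11 did not pass the test over all genes. For the other 6, the 250 bases before a RefSeq start site are printed here, so that the genes with separate groups can be compared in sequence. They come from the RefSeq promoter table of GRCm38.p6, which holds 36 of the 48 carriers by symbol and 12 of the 14 called ones. Slc25a24 lies at chr3:109122899-109123148 on the plus strand, Slc25a30 at chr14:75787038-75787287 on the minus strand and Slc25a33 at chr4:149774268-149774517 on the minus strand. Slc25a23 is at chr17:57059864-57060113 on the minus strand (the more upstream of 2 starts), Slc25a38 at chr9:120110132-120110381 and Slc25a47 at chr12:108850879-108851128, both on the plus strand. The start used for Slc25a47 is an internal one, and its whole window lies inside the span of the gene given below; of the windows of Slc25a23 and Slc25a38, 46 and 5 bases lie inside the gene's span. Sequences run 5′ to 3′ on the gene's strand in lower case, and capitals mark a match to any of the 8 motifs searched.
Slc25a24: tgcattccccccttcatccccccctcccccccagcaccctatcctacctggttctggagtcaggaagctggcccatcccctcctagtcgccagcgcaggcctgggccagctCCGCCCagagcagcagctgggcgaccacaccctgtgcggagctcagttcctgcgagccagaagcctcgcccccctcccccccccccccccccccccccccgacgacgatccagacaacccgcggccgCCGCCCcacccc
Slc25a30: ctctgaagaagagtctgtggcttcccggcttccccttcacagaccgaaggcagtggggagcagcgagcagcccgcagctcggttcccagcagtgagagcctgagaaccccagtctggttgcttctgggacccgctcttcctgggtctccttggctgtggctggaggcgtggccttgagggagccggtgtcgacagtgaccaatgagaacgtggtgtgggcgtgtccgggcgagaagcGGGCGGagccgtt
Slc25a33: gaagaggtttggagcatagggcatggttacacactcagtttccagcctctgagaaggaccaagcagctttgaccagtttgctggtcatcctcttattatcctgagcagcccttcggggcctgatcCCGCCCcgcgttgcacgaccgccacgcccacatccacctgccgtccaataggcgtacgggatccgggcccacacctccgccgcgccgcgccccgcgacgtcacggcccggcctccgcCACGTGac
Slc25a23: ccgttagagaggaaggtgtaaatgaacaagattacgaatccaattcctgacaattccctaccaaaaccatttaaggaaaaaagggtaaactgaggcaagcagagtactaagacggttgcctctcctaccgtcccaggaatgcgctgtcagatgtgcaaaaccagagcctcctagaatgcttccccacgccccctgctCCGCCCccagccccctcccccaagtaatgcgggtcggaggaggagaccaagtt
Slc25a38: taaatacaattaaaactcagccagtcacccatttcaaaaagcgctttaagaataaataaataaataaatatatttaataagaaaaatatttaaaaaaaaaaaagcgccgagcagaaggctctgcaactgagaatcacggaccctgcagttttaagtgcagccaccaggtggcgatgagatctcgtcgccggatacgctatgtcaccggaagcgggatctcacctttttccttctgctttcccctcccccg
Slc25a47: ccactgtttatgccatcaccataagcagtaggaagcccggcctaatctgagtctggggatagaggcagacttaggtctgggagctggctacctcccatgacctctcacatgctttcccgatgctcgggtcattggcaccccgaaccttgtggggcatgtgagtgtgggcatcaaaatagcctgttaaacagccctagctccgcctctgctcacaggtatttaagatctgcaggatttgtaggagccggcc

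The motifs were searched on both strands: NRF1 by its 10-letter consensus, ERR as AAGGTCA, FoxO as GTAAACA, the E-box as CACGTG, CRE as TGACGTCA, YY1 as AAGATGGC, Sp1 as GGGCGG and TATA as TATAAA. Some overlap in use, as the E-box is read by several factors, but no match of a pair of them shared bases in the 6 windows. The Sp1 motif was in the windows of Slc25a23, Slc25a24 (2 matches), Slc25a30 and Slc25a33 and not in those of Slc25a38 and Slc25a47. Over all 36 carriers with an entry, 25 (69.4%) held it, against 35.4% of 27025 genes with a promoter and 63.7% of the 10171 tested genes that have one. The E-box was in 7 of the 36 (19.4%), against 6.86% and 9.91%, and Slc25a33 holds it 8 bases before the start. CRE was in 2, Slc25a25 and Slc25a36 (5.56%, against 1.77% and 3.15%), and NRF1 in 2, Slc25a3 and Slc25a31 (5.56%, against 4.23% and 9.42%). None of the 36 held the FoxO or YY1 letters in this window, which 3.54% and 1.83% of all genes with a promoter did. A match describes these letters and no more. The median GC content was 64.4% for the 5 starts of the carriers called higher, 54.8% for the 10 starts of those called lower and 60.0% for the tested genes.

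Gene lengths were not at hand, so CPM values below are compared between libraries of a gene and not between genes. The plot of carriers by substrate shows the levels in all libraries.

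**Figure D2:**
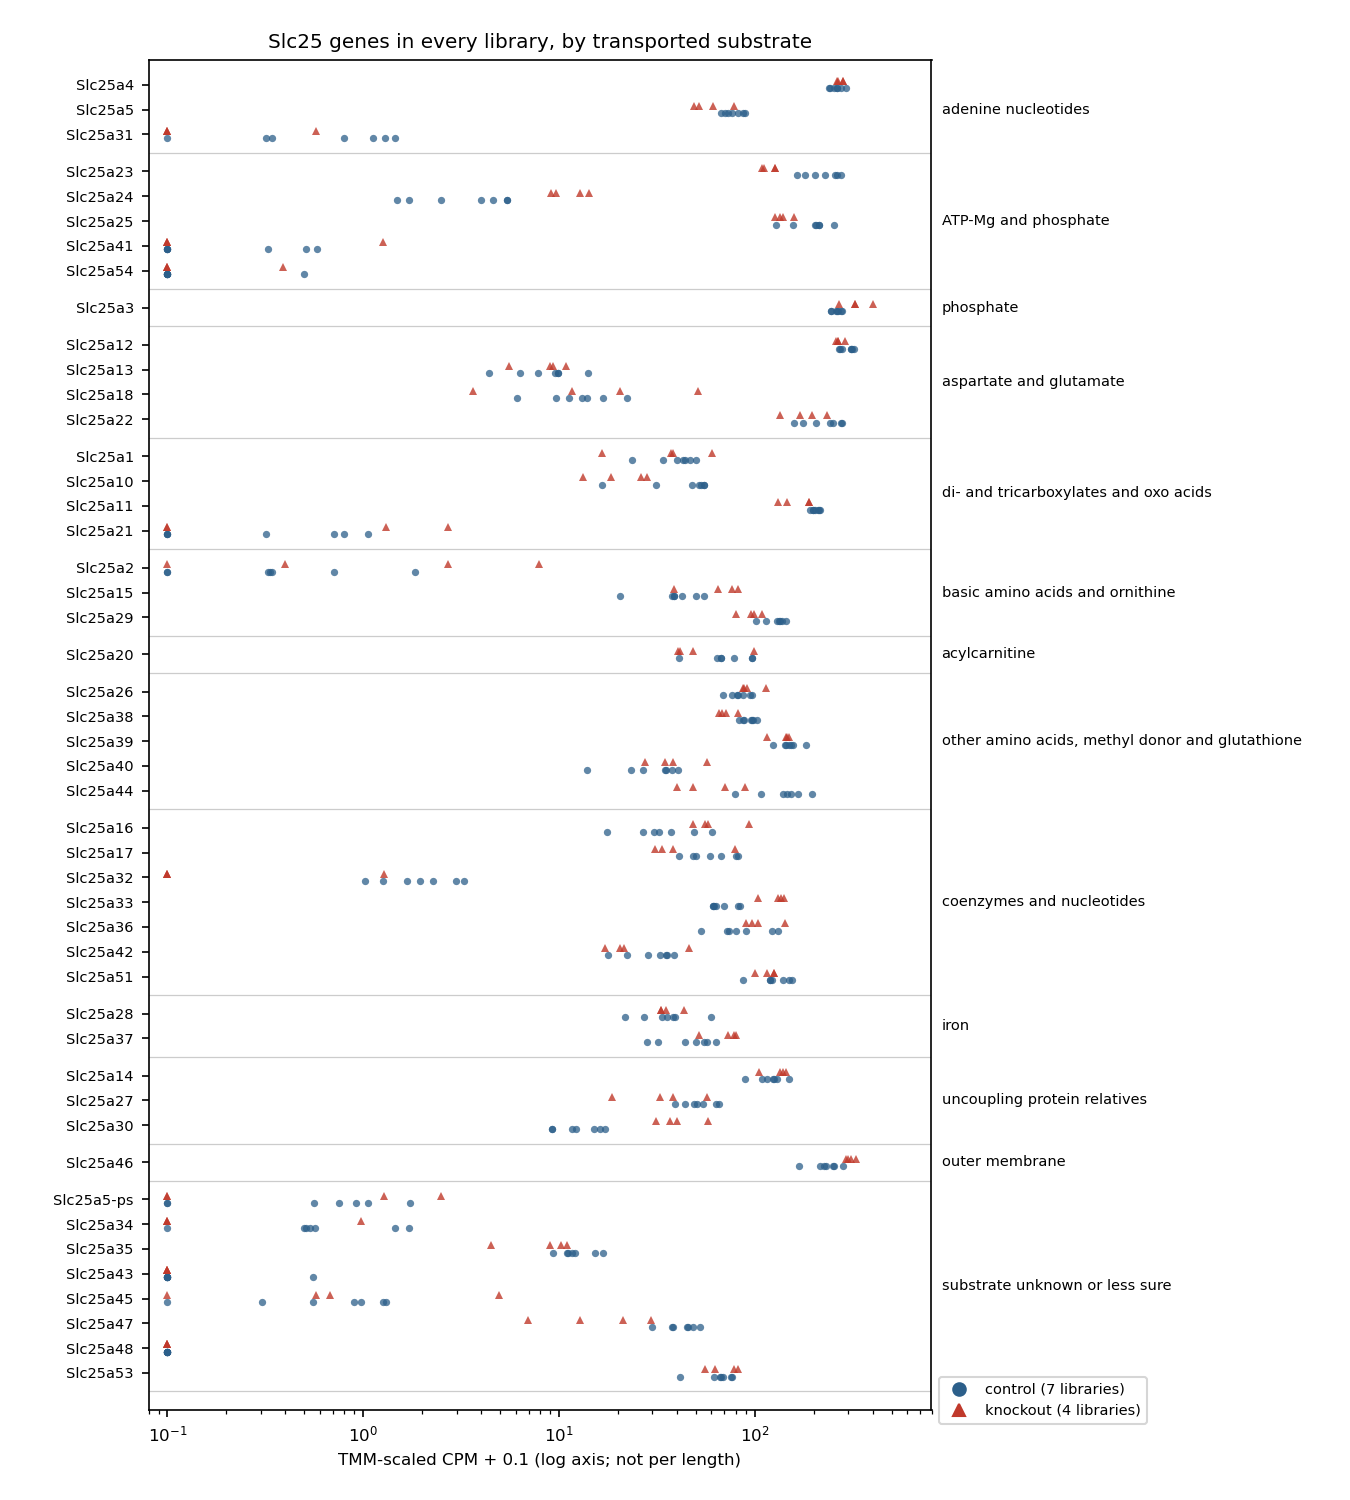
TMM-scaled CPM plus 0.1 on a log axis for the Slc25 genes reported (rows), grouped by transported substrate, with 7 control (circles) and 4 knockout libraries (triangles). Positions compare libraries within a row, since the values are not per length; the knockouts of Slc25a24, Slc25a30, Slc25a33 and Slc25a46 all lie to the right of the controls.

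The ADP/ATP carriers did not pass. Slc25a4 encodes ANT1, the main ADP/ATP exchanger of heart, muscle and brain. It was at 264, 281, 266 and 282 CPM in knockouts F371, M374, M390 and M456 and at 239.5 to 292 CPM (median 262) in the controls. All 4 knockouts lay inside the control range, and the fitted change was 0.03 ± 0.09 (SE, edgeR adjusted p = 0.83). Slc25a5 encodes ANT2, the isoform of proliferating tissue. It was at 51.7, 48.7, 78.0 and 61.0 CPM in the same knockouts and at 66.8 to 89.3 CPM (median 76.2) in the controls, so 3 of 4 knockouts were below every control and M390 was not. Its log2 fold change of -0.41 ± 0.16 had an edgeR adjusted p of 0.071. Slc25a31, the testis isoform ANT4, had 2 reads in all knockouts and 22 in all controls and was not tested, as was Slc25a5-ps, with 11 and 20 reads. Slc25a5 has processed copies in the genome, so reads that fit several places can be missing from its count. Such reads were 8.83% to 10.6% of alignments in the knockouts and 7.91% to 9.40% in the controls.

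The phosphate carrier Slc25a3, which brings phosphate into the matrix for ATP synthesis, rose. It was at 325, 327, 269.6 and 404 CPM in knockouts F371, M374, M390 and M456, and at 244 to 279 CPM (median 262) in the controls. Knockouts F371, M374 and M456 stood above all controls and M390 inside their range. The fit gave 0.36 ± 0.10 (edgeR adjusted p = 0.0196), and the ratios of mean CPM within batches 1, 2 and 3 were 0.24, 0.04 and 0.64 on the log2 scale. The gene (ENSMUSG00000061904) spans chr10:91116574-91124046. Its change fell to 0.02 when library total was a covariate, and to 0.15 without M456 (edgeR adjusted p = 0.95 and 0.40). As given below, library total moved with genotype within each batch, and a fit with that covariate cannot separate them. Among the controls it was lowest in the deepest library, M480, and highest in M476, the shallowest control.

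Carriers of ATP-Mg and phosphate changed in opposite directions. These carriers are switched by calcium on the cytosolic side and set the adenine nucleotide content of the matrix. Slc25a24 (SCaMC-1) was at 9.58, 12.8, 8.98 and 14.1 CPM in knockouts F371, M374, M390 and M456 and at 1.40 to 5.36 CPM (median 3.91) in the controls. Every knockout was above every control, on 149 reads in the knockouts and 114 in the controls. Fitted over all genes, it changed by 2.06 ± 0.47 (edgeR adjusted p = 0.00721), and by batch the log2 ratios were 2.00, 2.16 and 1.66. Batch 2 had the largest ratio of the 3. Slc25a24 (ENSMUSG00000040322) spans chr3:109123149-109168409.

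Slc25a23 (SCaMC-3) was at 127, 108, 127 and 112 CPM in the same knockouts and at 164 to 277 CPM (median 229) in the controls. Again the groups were separate, here with the knockouts below. This was a log2 change of -0.75 ± 0.15 (edgeR adjusted p = 0.00390), and the within-batch log2 ratios were -0.61, -0.37 and -1.13. Slc25a25 (SCaMC-2), known as an ATP-Mg carrier of brain and muscle, was at 139.9, 158, 126 and 135 CPM in the knockouts and at 129 to 254 CPM (median 206) in the controls. The lowest control was M476, at 129 CPM, and 3 knockouts lay inside the control range. Its fitted change was -0.49 ± 0.16 (edgeR adjusted p = 0.0412), a call kept in 4 of the 11 fits that left out 1 library. Slc25a23 (ENSMUSG00000046329) spans chr17:57043711-57059909 and Slc25a25 (ENSMUSG00000026819) chr2:32414487-32451470, where it overlaps Naif1. Slc25a41 had 4 and 5 reads and Slc25a54 1 and 2 reads in knockouts and controls, and neither was tested.

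**Figure D3:**
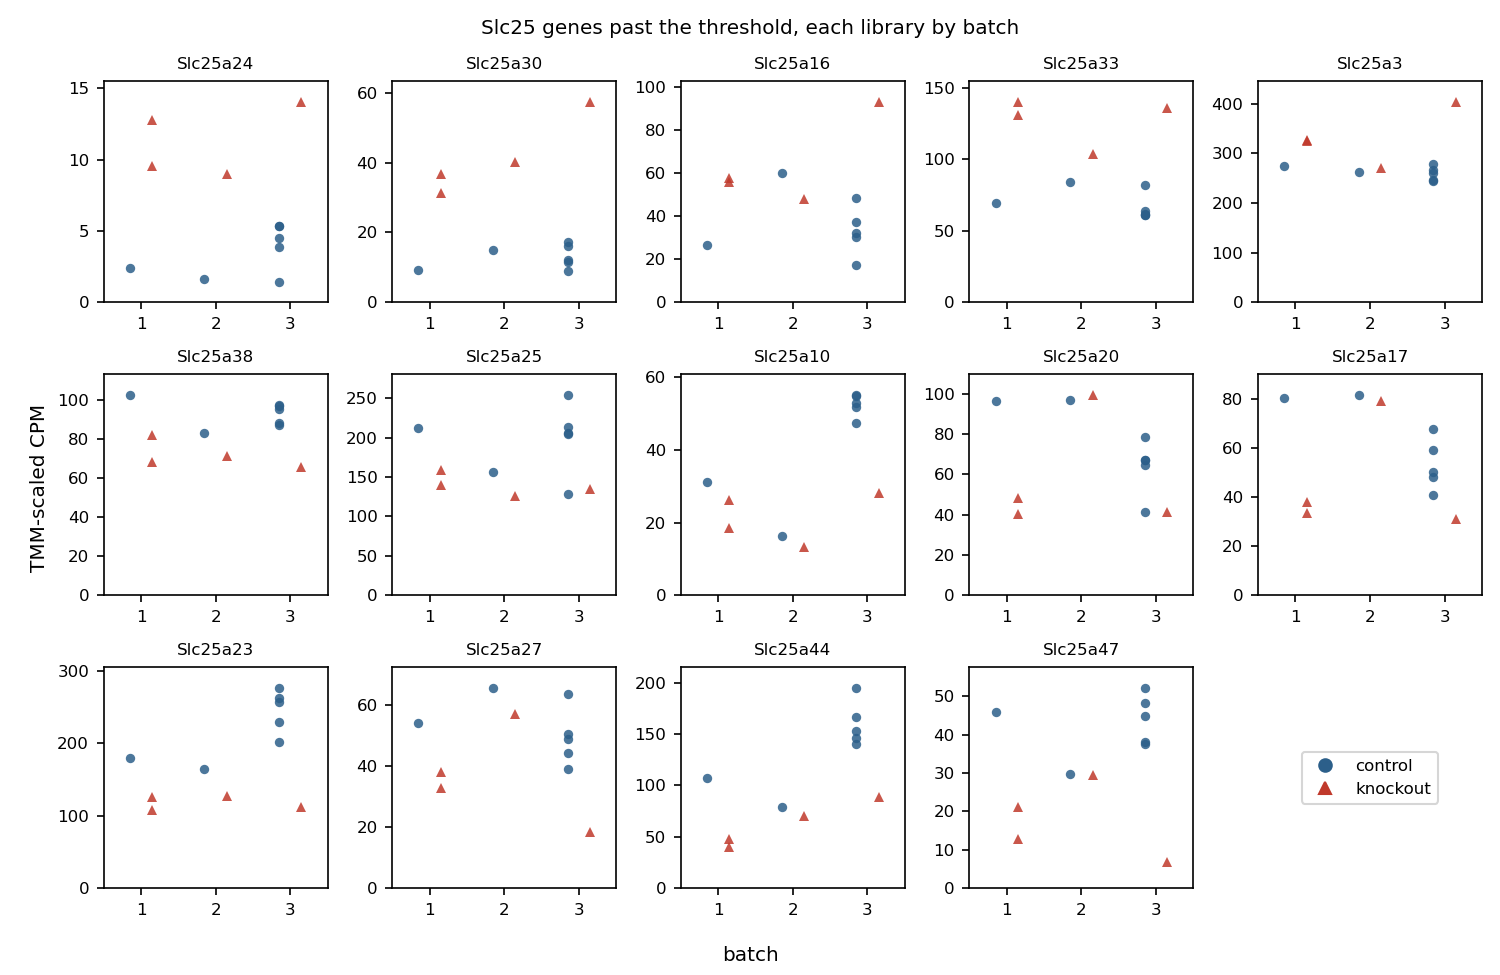
TMM-scaled CPM (vertical axes, from 0) of the 14 Slc25 genes past the threshold, each library plotted in its batch (horizontal axes), controls as circles and knockouts as triangles. In Slc25a24, Slc25a30 and Slc25a33 the knockout is above its batch controls in all 3 batches; in Slc25a17 and Slc25a47 the batch 2 pair lies close together.

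The aspartate and glutamate carriers did not pass. Slc25a12 encodes aralar, the calcium-activated aspartate/glutamate exchanger of neurons and part of the malate-aspartate shuttle. It was at 261, 265, 266 and 288 CPM in knockouts F371, M374, M390 and M456 and at 271 to 320 CPM (median 309) in the controls. Though 3 knockouts lay below all controls, the ratios within batches were -0.04, -0.04 and -0.09 on the log2 scale, and the controls of batches 1 and 2 were both lower than those of batch 3. The fit gave -0.06 ± 0.08 (edgeR adjusted p = 0.62). Slc25a13 encodes citrin, the exchanger best known from liver, and was at 5.43 to 10.7 CPM in the knockouts and 4.30 to 13.9 CPM in the controls (log2 fold change -0.02 ± 0.40).

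Slc25a22, a glutamate carrier whose loss causes early epileptic encephalopathy, was at 195, 171, 134 and 235 CPM in the knockouts and at 159 to 279 CPM (median 241) in the controls. Its fitted change was -0.14 ± 0.13 (edgeR adjusted p = 0.44). Slc25a18, the glutamate carrier known mainly from astrocytes, was the most uneven carrier of this group. It was at 20.3, 11.6, 3.54 and 51.0 CPM in knockouts F371, M374, M390 and M456 and at 6.02 to 22.2 CPM (median 13.1) in the controls. M456 stood above all controls and M390 below all, and the within-batch log2 ratios were 1.33, -1.83 and 1.78. The log2 fold change of 0.98 ± 0.48 did not pass (edgeR adjusted p = 0.14), while without batch 2 it was 1.68 (edgeR adjusted p = 0.00208). Without M456 it was -0.07, with library total as covariate -0.57 and with the marker score described below -0.23, so its direction rested on that library and on those choices. The summed Bergmann glia and astrocyte markers were also highest in M456, at 1782 CPM. In M390 they were 1072 CPM, above knockout F371 (1047 CPM) and control M386 (1017 CPM). Slc25a18 had the opposite order, at 3.54 CPM in M390 against 20.3 CPM in F371 and 13.9 CPM in M386. Much of the marker sum came from Aldoc and Sept4, as given above. The part of these markers in the spread of Slc25a18 was not tested.

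Of the carriers of di- and tricarboxylates and oxo acids, 1 of 3 tested fell. Slc25a10, the dicarboxylate carrier that exchanges malate or succinate for phosphate, was at 26.1, 18.4, 13.2 and 28.1 CPM in knockouts F371, M374, M390 and M456 and at 16.4 to 55.2 CPM (median 51.7) in the controls. The 2 controls of batches 1 and 2, at 31.3 and 16.4 CPM, lay far below the 5 of batch 3, at 47.5 to 55.2 CPM, so the groups overlap although each knockout was below the controls of its own batch. This was a log2 change of -0.61 ± 0.21 (edgeR adjusted p = 0.0441), and by batch the log2 ratios were -0.48, -0.30 and -0.89. The call was kept in 4 of the 11 fits that left out 1 library. The gene (ENSMUSG00000025792) spans chr11:120491837-120501161. Slc25a11, the oxoglutarate/malate carrier of the malate-aspartate shuttle, was at 147, 132, 189 and 189 CPM in the knockouts and at 192 to 216 CPM (median 203) in the controls. The groups did not overlap, but the margin in M390 and M456 was narrow, and the log2 fold change of -0.27 ± 0.11 had an edgeR adjusted p of 0.085. Slc25a11 overlaps Rnf167. Slc25a1, the citrate carrier, was at 16.5 to 60.6 CPM in the knockouts and 23.6 to 49.8 CPM in the controls, with a log2 fold change of 0.13 ± 0.19. Slc25a21, the oxoadipate carrier, had 14 and 11 reads and was not tested.

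Among carriers of ornithine and basic amino acids and of acylcarnitine, only Slc25a20 passed. It encodes the carnitine-acylcarnitine carrier, which feeds fatty acids to oxidation. Its levels were 48.5, 40.4, 99.5 and 41.4 CPM in knockouts F371, M374, M390 and M456 and 41.2 to 96.6 CPM (median 66.9) in the controls. M390 was above every control, and M456 was level with M476, the lowest control. Its fitted change was -0.62 ± 0.22 (edgeR adjusted p = 0.0494), and by batch the log2 ratios were -1.11, 0.04 and -0.61. The call was kept in 3 of the 11 fits without 1 library, and without control M379 the change was -0.32 (edgeR adjusted p = 0.43). The gene (ENSMUSG00000032602) spans chr9:108662136-108684642. Slc25a15, the ornithine carrier of the urea cycle, had a log2 fold change of 0.47 ± 0.25 and Slc25a29, which carries basic amino acids, one of -0.29 ± 0.11 (edgeR adjusted p = 0.17 and 0.063). Slc25a2 was not tested. Of its 39 reads in the knockouts most came from F371, where it was at 7.84 CPM, against 0 to 2.60 CPM in the other knockouts and 0 to 1.74 CPM in the controls.

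Of 5 carriers for other amino acids, the methyl donor and glutathione, 2 fell. Slc25a44, a carrier of branched-chain amino acids described in brown fat, was at 48.5, 40.1, 70.2 and 89.1 CPM in knockouts F371, M374, M390 and M456 and at 78.8 to 195 CPM (median 146) in the controls. Only M456 reached into the control range, and it was below the controls of its own batch, which started at 139.8 CPM. The fit gave -0.83 ± 0.17 (edgeR adjusted p = 0.00534), and by batch the log2 ratios were -1.27, -0.17 and -0.84. Slc25a38, a glycine carrier needed for heme synthesis, was at 82.1, 68.3, 71.4 and 65.9 CPM in the knockouts and at 83.2 to 103 CPM (median 95.2) in the controls. The groups were separate by a small step, between 82.1 CPM in F371 and 83.2 CPM in control M386. Fitted over all genes, it changed by -0.41 ± 0.13 (edgeR adjusted p = 0.0378), and by batch the log2 ratios were -0.45, -0.22 and -0.49. That call was kept in 4 of the 11 fits that left out 1 library. Slc25a44 (ENSMUSG00000050144) spans chr3:88410494-88425141 and Slc25a38 (ENSMUSG00000032519) chr9:120110377-120126093. Slc25a39, a glutathione carrier, was at 149, 146, 116 and 145 CPM in the knockouts and 124 to 184 CPM in the controls (log2 fold change -0.06 ± 0.11). Slc25a40, its relative, had a log2 fold change of 0.12 ± 0.27 and Slc25a26, which carries S-adenosylmethionine, one of 0.14 ± 0.15.

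The carriers of coenzymes and nucleotides held 2 genes that rose and 1 that fell among 7 tested. Slc25a33 encodes a pyrimidine nucleotide carrier that supplies mitochondrial DNA and RNA synthesis. It was at 140.5, 131, 103 and 136 CPM in knockouts F371, M374, M390 and M456 and at 61.0 to 84.1 CPM (median 63.7) in the controls, with no overlap. This was a log2 change of 0.83 ± 0.15 (edgeR adjusted p = 0.00322), and the within-batch log2 ratios were 0.96, 0.30 and 1.04. Slc25a36, the other pyrimidine carrier, was at 89.9 to 143 CPM in the knockouts and 52.8 to 132 CPM in the controls and did not pass (log2 fold change 0.05 ± 0.16).

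Slc25a16, linked to coenzyme A in mitochondria, was at 57.8, 55.8, 48.2 and 93.2 CPM in the knockouts and at 17.4 to 60.1 CPM (median 32.3) in the controls. Only M456 was above all controls, and the highest control was M386 of batch 2. Its fitted change was 0.93 ± 0.29 (edgeR adjusted p = 0.0320), and by batch the log2 ratios were 1.07, -0.32 and 1.47. Without M456 it was 0.45 (edgeR adjusted p = 0.54). Slc25a17, the peroxisomal carrier of coenzyme A, FAD and NAD, was at 33.4, 38.0, 78.9 and 30.9 CPM in the knockouts and at 40.7 to 81.6 CPM (median 59.2) in the controls. Its 3 knockouts of batches 1 and 3 were below every control and M390 stood beside control M386, and by batch the log2 ratios were -1.16, -0.05 and -0.77. The fit gave -0.72 ± 0.22 (edgeR adjusted p = 0.0247), and without control M379 it gave -0.45 (edgeR adjusted p = 0.27). Slc25a33 (ENSMUSG00000028982) spans chr4:149744036-149774267, Slc25a16 (ENSMUSG00000071253) chr10:62920632-62946494 and Slc25a17 (ENSMUSG00000022404) chr15:81318921-81360765.

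The NAD carrier Slc25a51 and the coenzyme A carrier Slc25a42 had log2 fold changes of -0.09 ± 0.17 and -0.33 ± 0.30. Slc25a32, which carries folate or FAD, was scarce and not tested. It had 5 reads in the knockouts, all in M390 and none in F371, M374 or M456, and 63 in the controls, where its level was 0.925 to 3.18 CPM. The counts of 0 lie under detection floors of 0.871, 0.891 and 1.20 CPM, so M456 could not be told from the lower controls at this depth.

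The iron carriers did not pass. Slc25a37 (mitoferrin-1), best known from red cell precursors, was at 80.4, 72.7, 51.7 and 78.7 CPM in knockouts F371, M374, M390 and M456 and at 28.1 to 63.5 CPM (median 50.01) in the controls. The 3 knockouts of batches 1 and 3 were above all controls, with a log2 fold change of 0.67 ± 0.26 (edgeR adjusted p = 0.066). Slc25a28 (mitoferrin-2), the widely expressed form, was at 33.1 to 43.2 CPM in the knockouts, inside the 21.6 to 60.0 CPM of the controls (log2 fold change -0.04 ± 0.27).

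Relatives of the uncoupling proteins went different ways. Slc25a30, a relative first described in kidney, was the carrier with the smallest p. It was at 31.3, 36.8, 40.2 and 57.4 CPM in knockouts F371, M374, M390 and M456 and at 9.07 to 17.2 CPM (median 12.1) in the controls. The lowest knockout was above the highest control. Fitted over all genes, it changed by 1.88 ± 0.25 (edgeR adjusted p = 0.00140), the within-batch log2 ratios were 1.84, 1.39 and 2.08, and it passed in all 11 fits that left out 1 library. Slc25a27 (UCP4), a carrier of brain, was at 32.8, 38.0, 56.9 and 18.5 CPM in the knockouts and at 39.1 to 65.7 CPM (median 50.6) in the controls. Here 3 knockouts were below all controls and M390 inside their range, with a log2 fold change of -0.78 ± 0.24 (edgeR adjusted p = 0.0284). By batch the log2 ratios were -0.61, -0.20 and -1.39. When library total was a covariate the change was -0.14, with the marker score it was -0.82, and without M456 it was -0.44 (edgeR adjusted p = 0.83, 0.59 and 0.29). Slc25a14 (UCP5), also enriched in brain, was at 134, 140.1, 145 and 105 CPM in the knockouts and 88.9 to 149 CPM (median 123) in the controls, with all 4 knockouts inside the control range (log2 fold change -0.04 ± 0.13, edgeR adjusted p = 0.83). Slc25a30 (ENSMUSG00000022003) spans chr14:75757534-75787037 and Slc25a27 (ENSMUSG00000023912) chr17:43637739-43667214.

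Slc25a46, an outer membrane protein of mitochondrial shape whose loss causes optic atrophy and neuropathy, was at 300.1, 327, 310.0 and 294 CPM in knockouts F371, M374, M390 and M456. The controls were at 167 to 281 CPM (median 229.9), all below. The log2 fold change was 0.32 ± 0.12 and the within-batch log2 ratios were 0.32, 0.14 and 0.43. It missed the threshold (edgeR adjusted p = 0.057) and passed it in 11 of 23 other fits, among them DESeq2's Wald test (adjusted p = 0.031) and the fit without batch 2 (edgeR adjusted p = 0.0193).

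Of the carriers whose substrate is unknown or less sure, 3 were tested. Slc25a47, known mainly from liver, fell. It was at 12.8, 21.1, 29.5 and 6.83 CPM in knockouts F371, M374, M390 and M456 and at 29.8 to 52.2 CPM (median 44.8) in the controls. All knockouts were below all controls, but M390 and its batch control M386 differed by little, at 29.5 and 29.8 CPM. This was a log2 change of -1.40 ± 0.37 (edgeR adjusted p = 0.0134), and by batch the log2 ratios were -1.41, -0.01 and -2.61. Without M456 the change was -0.84, and with library total as covariate -0.41 (edgeR adjusted p = 0.16 and 0.64). The gene (ENSMUSG00000048856) spans chr12:108849833-108856815. Slc25a35 and Slc25a53 had log2 fold changes of -0.71 ± 0.37 and 0.09 ± 0.19 and did not pass. Slc25a34, Slc25a43 and Slc25a45 had 3, 0 and 16 reads in the knockouts and 21, 2 and 21 in the controls and were not tested, and Slc25a48 had 0 reads in all 11 libraries.

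**Figure D4:**
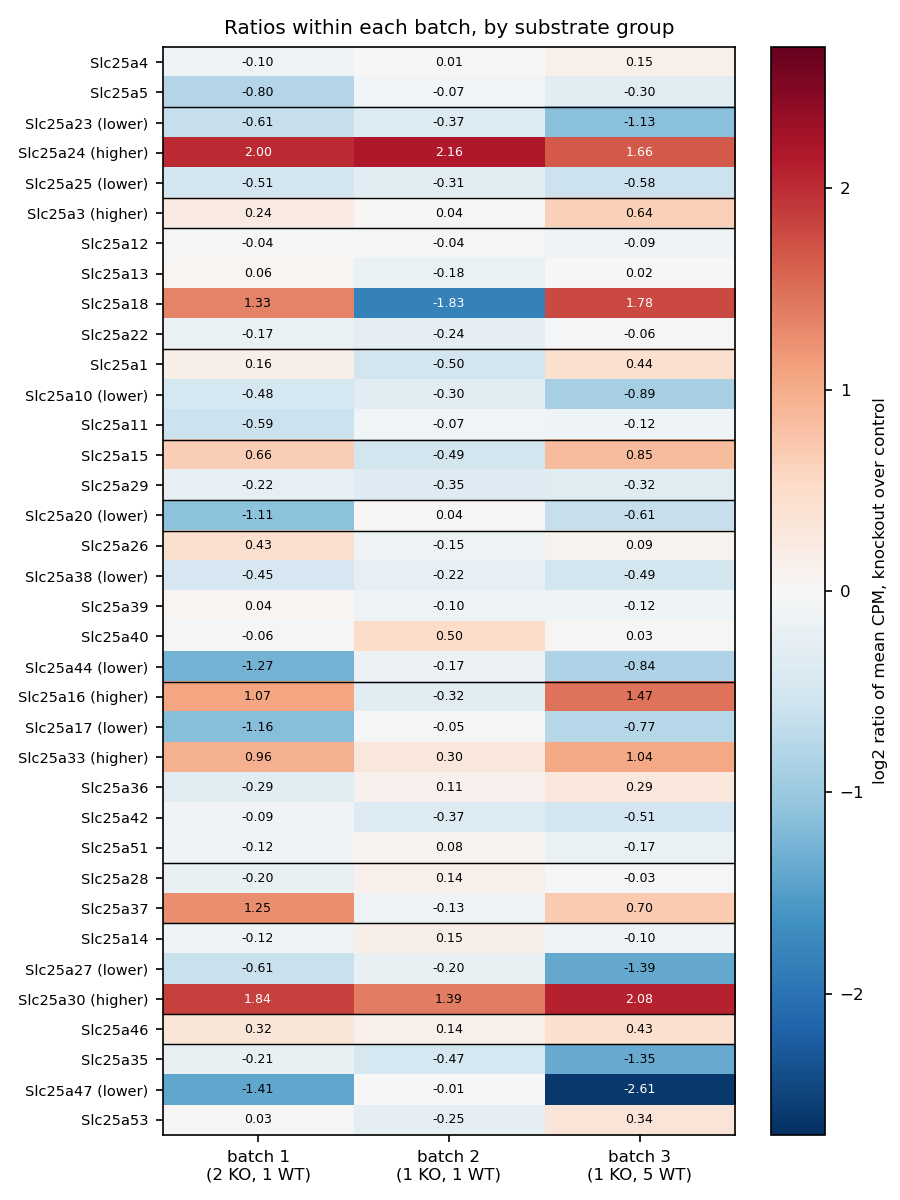
Log2 ratio of mean CPM, knockout over control, within each batch (columns) for the tested Slc25 genes reported (rows, by substrate group), with a pseudocount of 0.5 CPM; genes past the threshold carry their direction. Batch 2, with 1 library of each group, has the smallest ratio in size in each called gene but Slc25a24, and Slc25a18 changes from 1.33 to -1.83.

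The batches did not weigh alike. Of the 14 called carriers 12 had the same sign of the ratio in all 3 batches, and Slc25a16 and Slc25a20 did not. This held for 21 of the 37 tested carriers and 6484 of the 13375 tested genes. The 14 were picked by a fit to these same libraries. Their shared signs, and the counts outside the control range below, are therefore no independent check. The median size of the ratio over the 14, regardless of sign, was 1.02, 0.26 and 0.96 on the log2 scale in batches 1, 2 and 3. Outside the range of all 7 controls, and in the called direction, were F371 for 10 of the 14, M374 for 11, M390 for 9 and M456 for 10. For Slc25a47 M390 was outside by a narrow margin, and for Slc25a20, called lower, it lay above every control. Some of the 37 tested carriers separated the batches in the controls alone. The controls of batches 1 and 2 were both above the 5 of batch 3 in 6 carriers, Slc25a14, Slc25a15, Slc25a17, Slc25a20, Slc25a36 and Slc25a40. They were both below in 7, Slc25a1, Slc25a10, Slc25a12, Slc25a23, Slc25a29, Slc25a39 and Slc25a44. The share of all tested genes split in this way was not computed, so these counts describe the carriers alone.

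Depth moved with the groups too. Among the 5 controls of batch 3, M476 was the shallowest at 4.09 M reads and M480 the deepest at 5.14 M. Of the 37 tested carriers, 25 were lower in M476 than in M480. These included 8 of the 9 lower in knockouts, with Slc25a23 the exception and Slc25a38 nearly level at 96.8 and 97.4 CPM. Of the 5 higher in knockouts, 2 were higher in M476, Slc25a3 and Slc25a33, and 3 were lower, Slc25a16, Slc25a24 and Slc25a30. M476 was the lowest of all 7 controls for 17 of the 37 tested carriers. Shares of all tested genes were not computed for these counts. M476 also had the highest share of ambiguous reads, 4.52%. Control M379 of batch 1 was nearly as shallow, at 4.19 M reads. The pair M476 and M480 therefore does not isolate depth. When library total was a covariate, or a score of Purkinje markers minus granule cell, glial and oligodendrocyte markers was, edgeR called 0 carriers and 0 genes in all, with 6 and 5 carriers and 1841 and 1145 genes at an unadjusted p under 0.05. Within each batch, every knockout had fewer reads and a lower score than every control. The fits with a covariate therefore cannot separate genotype from depth or from the markers of other cells. When every library was thinned to the smallest total, 6 carriers were higher and 7 lower, with 3238 of 12394 tested genes called.

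Across the 7 controls the tested carriers varied by a median CV (SD over mean) of 20.9%, from 4.22% for Slc25a11 to 48.2% for Slc25a24. Of the 37, 6 had a CV under 10%, among them Slc25a3, Slc25a4, Slc25a11, Slc25a12 and Slc25a38. All 48 carriers summed to 3607 CPM ± 149 (SD, n = 4) in knockouts against 3787 CPM ± 195 (SD, n = 7), with ranges of 3495 to 3820 and 3440 to 4015 CPM that overlap widely.

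Related genes outside the symbol rule were counted the same way. Among family members with other symbols, 1 of 4 tested rose, Ucp2, an uncoupling protein known from immune and glial cells, by 1.23 ± 0.31 on the log2 scale (edgeR adjusted p = 0.0119), while Mtch1 and Mtch2 of the outer membrane had 0.31 ± 0.13 and -0.09 ± 0.14. Ucp2 averaged 18.7 CPM ± 15.4 (SD, n = 4) in knockouts against 15.2 CPM ± 8.14 (SD, n = 7), with overlapping groups. Ucp1 had 2 reads in the knockouts and 0 in the controls.

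Genes that import carriers through the outer membrane and insert them into the inner one had 6 of 15 tested members higher and 0 lower. That was 40% called, against 24.4% of all genes, with a median SE of 0.13 against 0.23. Tomm22, a receptor of the outer membrane translocase, rose by 0.45 ± 0.11, Timm10, a chaperone that escorts carriers between the membranes, by 0.55 ± 0.14, Tomm7 by 0.54 ± 0.14 and Tomm70a, the receptor that takes up carrier precursors, by 0.44 ± 0.13 (log2, SE, edgeR adjusted p = 0.0111, 0.0120, 0.0137 and 0.0202). Tomm70a and Tomm7 had separate groups, with means, knockouts first, of 335 CPM ± 22.4 against 227 CPM ± 47.7 and of 125 CPM ± 24.1 against 84.6 CPM ± 6.46 (SD over 4 and 7 libraries).

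Of 21 other mitochondrial transporters and channels, 1 rose and 3 fell (19.0% called, below the 24.4% of all genes). Micu3, a neuronal regulator of the calcium uniporter, rose by 0.51 ± 0.12, and Letm1, an inner membrane cation exchanger, fell by 0.70 ± 0.12, with control libraries averaging 194 CPM ± 17.3 (SD, n = 7) and those of knockouts 119.7 CPM ± 14.7 (SD, n = 4). Abcb8 and Sfxn2 fell by 0.87 ± 0.23 and 1.21 ± 0.42. Of 24 enzymes that use what the carriers bring, 0 rose and 6 fell (25% called, near the 24.4% of all genes, and 13.4% of all genes were lower). Alas1, the first enzyme of heme synthesis, which starts from glycine, fell by 0.68 ± 0.15 (edgeR adjusted p = 0.00584). The iron-sulfur cluster enzyme gene Nfs1 and the neuronal Cpt1c fell by 0.66 ± 0.17 and 0.56 ± 0.16. The summed markers of other cells, given above for each list, also differed between these groups of libraries. Their part in these counts was not tested beyond the fit with the score, which cannot separate them from genotype.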

How the data were processed

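Counts cover 11 libraries of ribosome-bound RNA from mouse cerebellum, 1 per animal, 4 knockouts and 7 controls. The authors deposited whole-number read counts per gene; STAR, HTSeq and the build GRCm38 are named in the submitters' processing notes. The sources used here give no versions, strand setting, counting options or removal of duplicates, so overlapping genes (14 of the carriers overlap another RefSeq gene) and near-identical copies are uncertain. The 5 summary lines that name no gene stayed out of totals and tests: reads outside genes were 7.29% to 12.0% of alignments in the knockouts and 6.11% to 7.76% in the controls, ambiguous reads 3.82% to 4.00% and 3.93% to 4.52%, and multiply aligned reads are given with the results. Reads carry no molecular identifiers. The labels give each library a genotype, a batch, an age and its own animal tag, and link no library to the animal of another. Even the 2 libraries most alike (controls M477 and M479) gave a chi-square over genes of 2.40 for each degree of freedom, more than sampling noise, and every library was counted as its own sample; p-values measure the spread between these animals.

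Genes were fitted with edgeR 4.0.16 (R 4.3.3): filterByExpr on group (13375 genes left), TMM factors, and a quasi-likelihood model of batch and genotype with 7 residual degrees of freedom, two-sided, Benjamini-Hochberg adjusted over all tested genes at 0.05. SE is the log2 fold change over the root of F. Within-batch ratios use mean CPM plus 0.5; no batch has 2 libraries in both groups, so none was tested alone. The script was tested on simulated counts. Alternatives were no batch term, 2 other scalings, 2 other filters, DESeq2 1.42.0, limma 3.58.1 (voom), 2 covariates, subsets of libraries and thinning. No exon lengths were at hand, so levels per length were not computed. Positions and promoters come from RefSeq tables of GRCm38.p6, where all 48 symbols matched for position. Named carriers are those called, the 10 with the highest mean CPM in controls, 11 fixed genes and those without reads, and from other lists up to 4 called genes with the smallest p; other carriers are given as values. The motifs and the 6 printed promoters were chosen after the fit was seen, and the members and lists were chosen with earlier results of these data known. A few results on single genes are not reported here, though counts over lists include those genes.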

Additional observations from a re-analysis of the deposited data

Results flagged for a closer look

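In 72 sets of values, the 4 knockouts or the 7 controls of each of 36 tested carriers, 6 held a library far from the rest of its group, where chance gives about 1 in 20. In 5 of them it was a knockout. M390 was apart in 3 carriers. In Slc25a17 it was at 78.9 CPM against 30.9 to 38.0 CPM in the other knockouts, in Slc25a20 at 99.5 CPM against 40.4 to 48.5 CPM, and in Slc25a39 at 116 CPM against 145 to 149 CPM. M390 was the only knockout of batch 2, and these sets pool the batches. Control M386 of that batch was near it in all 3, at 81.6, 96.6 and 124 CPM. F371 was apart in Slc25a26, at 114 CPM against 87.2 to 91.7 CPM, and in Slc25a42, at 46.1 CPM against 17.0 to 21.3 CPM. Among the controls, M476 was low in Slc25a53, at 41.6 CPM against 61.9 to 76.0 CPM.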

How the results depend on the processing

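None of the 14 called carriers changed sign in any of 23 other fits, but only Slc25a30 passed in all 11 fits without 1 library. Over those 11 fits the number of carriers higher ranged from 1 to 9 (5 with all libraries), lower from 0 to 10 (9), and of all genes called from 335 to 4649 (3257). The lowest values came without M456 and then without M379 (522 genes); 4 carriers were lower without M374 and 5 without F473, M477 or M479. In these fits a batch can be left without a control or a knockout, and then adds nothing to the comparison. Without batch 2, 9 were higher, with 4643 of all genes called. In animals tagged M only, 3 were lower, with 2213 of all genes called. With the library total or the marker score as covariate, the numbers higher, lower and of all genes called were 0, 0 and 0. Both covariates moved with genotype within each batch, so these fits cannot separate them from genotype, and the cause was not tested. The median log2 fold change of the carriers stayed between -0.12 and -0.02. Among the carriers named but not called, the sign changed 8 times in fits without 1 library and 12 times in others, mostly on values near 0 but also for Slc25a18, as given with its values. No paired analysis was possible because the labels pair no animals across the groups; batch was a term in the fit, and without it 6 carriers were higher, 8 lower and 3353 genes called. Changing the pseudocount to 0.1 or 2 CPM left 12 called carriers with 1 sign in all batches. Levels by coding length were not run. Counting error limits the scarce genes, such as Slc25a24 with 114 reads in 7 controls.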
